A study of Mus musculus with 16 samples.

Results

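Core exons that were skipped in almost every transcript of the control cells were followed into cells in which Tardbp had been targeted. A core exon is an internal exon that is taken up or skipped as a whole, and its inclusion was measured as Psi (percent spliced in), the fraction of the transcripts of a gene that hold it, given by the program Whippet as 1 value per group. The exons are the internal exons longer than 30 bases with a Psi under 0.1 in the control group, 612 of 97651 core exons of that length and of 125520 splicing nodes of every kind. They lie in 497 genes, called host genes here, and no coordinate occurs more than once. Since control Psi chose them, Psi in both groups, the difference and its probability are given as descriptions without a test.

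The cells were CD8+ T cells of OT-I Tg mice on the C57BL/6J background, which carry a transgenic T cell receptor for the ovalbumin peptide SIINFEKL. They were electroporated with Cas9 and either a scrambled guide, named Control gRNA, or one that cuts Tardbp, named Tardbp gRNA, and moved into C57BL/6J recipients. Recipients of both groups were given the antigen together with agonist antibodies to OX40 and 41BB, and CD8+ cells were sorted from spleen and lymph nodes after 4 days according to the labels, although the methods state less time. There were 8 libraries per group, with 56016533 to 94801105 estimated counts per library. The targeted cells are a pool of edited cells and not a clone.

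Tardbp was measured in every library as a check of the labels. It had 171.8 CPM (counts scaled to the TMM-adjusted library total) in the lowest, 198.4 in the median and 206.9 in the highest Control library, against 110.4, 136.4 and 147.2 in the Tardbp libraries (log2 fold change -0.51, SE 0.056, edgeR adjusted p = 8.07e-07). All 8 Tardbp libraries lay below all 8 Control libraries, as the groups did not overlap for 16.9% of all genes tested. Summed markers of CD8 T cells (7 of 7 genes tested) ranged from 3663 to 4565 CPM with Control gRNA and from 5541 to 7109 with Tardbp gRNA. Those of B cells (5 of 7 tested) ranged from 11.5 to 25.99 and from 26.3 to 40.7 CPM, those of CD4 T cells (3 of 3) from 1.38 to 9.90 and from 2.25 to 7.26, those of myeloid cells (6 of 7) from 14.8 to 36.8 and from 19.3 to 80.0, and those of red cells (5 of 6) from 0.415 to 17.6 and from 9.11 to 180.0. RNA concentration before dilution, deposited without a unit, was 34.9 to 197.1 with Control gRNA and 10.1 to 24 with Tardbp gRNA. The part of these differences in the results below was not tested.

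Exons are recognised by the spliceosome through their splice sites with help or hindrance from proteins bound nearby. TDP-43, the protein made from Tardbp, binds UG-rich RNA and is known above all for keeping unsuitable exons out of mature transcripts. T cells change the use of particular exons when they are activated, and the variable exons of the surface proteins CD45 and CD44 are the classical cases. A skipped exon whose length is a multiple of 3 can be added without moving the reading frame, while one that brings a stop codon can send the transcript to nonsense-mediated decay.

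The exons on which the account turns are printed first, 5′ to 3′ on the sense strand, from the GENCODE M21 transcripts (GRCm38). The first set holds exons that can be added without a shift of the reading frame and without a stop codon, and is written in lower case throughout. Fyb is the exon with the widest difference in Psi, Spcs2 has the widest ratio among those with a probability over 0.9, the Ptprc exons belong to the CD45 variable region, and the others lie in a TCR kinase (Fyn), a lymphocyte transcription factor (Ikzf1) and an earlier known TDP-43 target (Tbc1d1).
Fyb, chr15:6644762-6644899, plus strand: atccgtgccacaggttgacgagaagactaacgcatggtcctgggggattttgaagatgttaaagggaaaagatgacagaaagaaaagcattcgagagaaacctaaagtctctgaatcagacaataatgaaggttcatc
Spcs2, chr7:99856413-99856514, minus strand: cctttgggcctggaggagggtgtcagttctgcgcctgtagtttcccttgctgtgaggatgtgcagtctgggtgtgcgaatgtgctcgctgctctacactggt
Ptprc node 6, chr1:138122456-138122584, minus strand: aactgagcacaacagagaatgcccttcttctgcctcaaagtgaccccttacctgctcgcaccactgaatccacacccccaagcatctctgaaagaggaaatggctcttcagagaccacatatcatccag
Ptprc node 8, chr1:138117754-138117894, minus strand: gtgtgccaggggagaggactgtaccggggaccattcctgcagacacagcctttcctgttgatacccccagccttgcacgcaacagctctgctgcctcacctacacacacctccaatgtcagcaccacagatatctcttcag
Fyn, chr10:39529437-39529601, plus strand: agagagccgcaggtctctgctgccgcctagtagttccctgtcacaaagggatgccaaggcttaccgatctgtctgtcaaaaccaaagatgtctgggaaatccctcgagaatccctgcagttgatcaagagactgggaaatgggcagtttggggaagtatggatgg
Ikzf1, chr11:11740950-11741009, plus strand: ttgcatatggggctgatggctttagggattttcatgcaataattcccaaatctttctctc
Tbc1d1, chr5:64283967-64284125, plus strand: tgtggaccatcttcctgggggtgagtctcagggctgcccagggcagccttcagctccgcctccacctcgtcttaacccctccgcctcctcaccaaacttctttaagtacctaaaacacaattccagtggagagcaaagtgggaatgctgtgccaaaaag

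The second set shows exons that bring a stop codon into the frame of the most abundant coding transcript without them, with that stop codon in capitals. Dctn6 has a probability over 0.9, and Srsf6 has the lowest control Psi among the splicing regulators.
Dctn6, chr8:34104986-34105098, minus strand: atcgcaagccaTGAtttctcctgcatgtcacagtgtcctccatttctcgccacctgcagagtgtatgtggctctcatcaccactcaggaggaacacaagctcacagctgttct
Srsf6, chr2:162932815-162932979, plus strand: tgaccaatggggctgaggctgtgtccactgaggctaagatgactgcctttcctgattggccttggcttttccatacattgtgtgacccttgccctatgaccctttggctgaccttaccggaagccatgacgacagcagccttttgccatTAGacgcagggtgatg
The stop codon starts at base 12 of the Dctn6 exon and base 150 of the Srsf6 exon. The annotated transcript Dctn6-202 begins its own reading frame inside the exon, so the stop codon counts only for transcripts read from the upstream start.

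Rarely included exons were short and often kept the frame. Their median length was 85 bases (quartiles 58 and 130), against 122 in the 10848 core exons of intermediate control Psi (0.1 to 0.9) and 120 in the 86191 near-constitutive ones. Of the 612 exons, 367 (60.0%) had a length divisible by 3, compared with 41.5% of intermediate and 38.1% of near-constitutive exons and with 56.2% of the 882 core microexons of up to 30 bases. In the annotation, 432 (70.6%) belonged to the coding sequence of at least 1 transcript and 161 (26.3%) were untranslated in every protein-coding transcript that held them, whereas 4.57% of intermediate and 0.737% of near-constitutive exons were untranslated only. The median GC content was 50%, against 51.2 and 50.3%. No test of these shares was made.

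**Figure D1:**
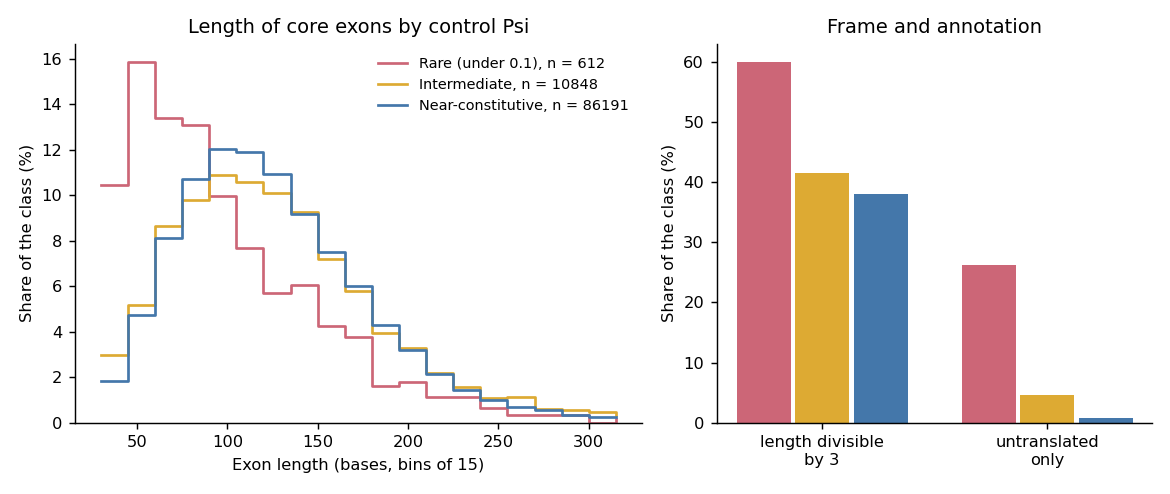
Left, share of each class of core exons over 30 bases (y axis, %) by exon length (x axis, bases), for rare, intermediate and near-constitutive exons by control Psi. Right, share of each class (%) with a length divisible by 3 and of exons that are untranslated in every protein-coding transcript holding them. The rare exons peak at shorter lengths, and 60.0% of them are divisible by 3 and 26.3% are untranslated only.

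To read what inclusion would do to the protein, each exon was placed alone into the most abundant coding transcript that skips it. Of the 451 exons that fell inside a coding sequence, 279 (61.9%) kept the frame, 121 (26.8%) brought an in-frame stop codon and 51 (11.3%) shifted the frame without a stop of their own. The remaining exons were 136 outside the coding sequence, 24 with no coding transcript that skips them and 1 not placed. Among 1670 intermediate exons inside a coding sequence the shares were 58.4, 20.7 and 20.9%. Of all 10848 intermediate exons, however, 8653 (79.8%) had no coding transcript that skips them and could not be placed, against 3.92% of the rare exons. The intermediate shares thus describe a small and selected part of that class, and are not a like-for-like comparison with the rare exons. The exons with a stop codon had a median control Psi of 0.0290 and those that kept the frame 0.0444. Their median differences, Tardbp gRNA minus Control gRNA, were 0.0032 and 0.0039.

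The UG repeat bound by TDP-43 was searched within the exons as TGTGTG or GTGTGT, on the sense strand and with overlapping matches counted. It occurred in 36 of 611 exons with sequence (5.89%), against 7.16% of intermediate and 6.59% of near-constitutive exons, which are longer. Per kilobase of exon there were 1.83 matches, against 0.712 and 0.702, and a pair of exons carried most of them. The exons of Gemin8 and Nrros held 45 and 44 matches, and the next highest count was 3, as in the Casp8 exon. The median difference in Psi was 0.0025 with the motif and 0.0039 without it. Intron sequence was not used here, so sites beside the exons were not searched.

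Inclusion stayed low in both groups. The median Psi was 0.0400 with Control gRNA (quartiles 0.0154 and 0.0689) and 0.0468 with Tardbp gRNA (quartiles 0.0174 and 0.0807). The difference had a median of 0.0035 and ran from -0.040 for Dscc1 to 0.221 for Fyb. It was positive for 413 exons and negative for 199, and it exceeded 0.05 for 27 exons upward and for 0 downward. The choice by control Psi bears on these counts. When exons were chosen by Psi under 0.1 with Tardbp gRNA in place of control, 586 were found and the median difference was 0.0013.

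The threshold was crossed in both directions. Of the 612 exons, 539 (88.1%) were also under 0.1 with Tardbp gRNA and 73 were at or above it, whereas 47 core exons at or above 0.1 in control were under it with Tardbp gRNA. The 3 exons just inside the rule were in Wdr7 (0.0985 with Control gRNA and 0.158 with Tardbp gRNA), Tmem260 (0.0986 and 0.0969) and Eif4e2 (0.0993 and 0.108). Just outside were exons of Vav2 (0.1005 and 0.119), Mff (0.101 and 0.114) and Tprkb (0.101 and 0.142). The values on either side of the threshold therefore overlapped with Tardbp gRNA.

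The size of the difference and control Psi both fell as the level of the host gene rose. In the lowest of 4 equal bins of exons by host gene expression (0.14 to 4.57 log2 CPM) the median control Psi was 0.0700 and the median absolute difference 0.0149. In the highest bin (6.99 to 11.20 log2 CPM) they were 0.0132 and 0.0028. The middle bins had a median control Psi of 0.0502 and 0.0231 and absolute differences of 0.0121 and 0.0050. Psi rests on the reads of the exon's own junctions, which were not used here. The parts of control Psi and of depth in this gradient were not tested.

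A probability over 0.9, the posterior probability that Psi differs between the groups, was reached by 9 of the 612 exons, where 0.308% of all core exons over 30 bases reached it. Only the exon of Fyb also passed the study's limit of a difference over 0.1, which 0.144% of those core exons passed (0.0584% upward and 0.086% downward). Of the 9 exons, 7 were higher with Tardbp gRNA and 2 were lower. Apart from Fyb and those in genes of the lists described below, they were singled out after their values were seen.

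**Figure D2:**
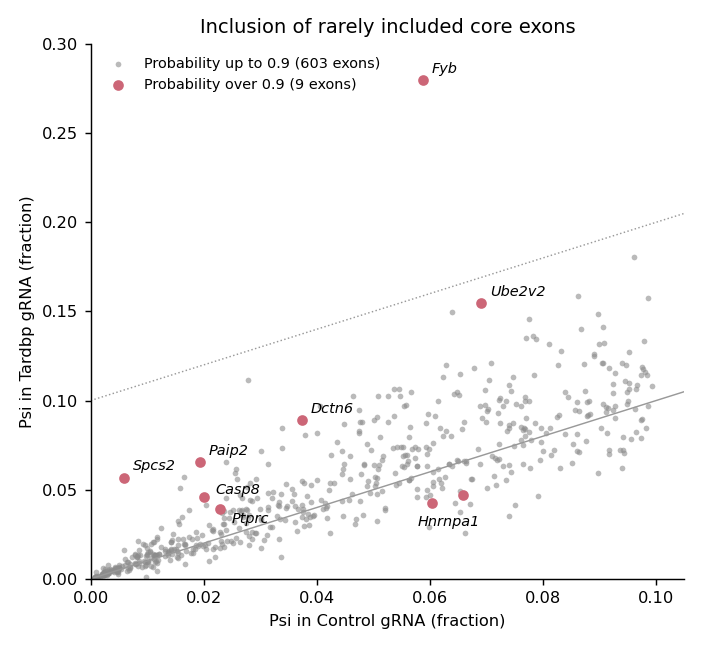
Psi with Tardbp gRNA (y axis, fraction) against Psi with Control gRNA (x axis, fraction), 1 point per exon, for the 612 exons. The solid line marks equal Psi and the dotted line a difference of 0.1. The 9 exons with a probability over 0.9 are shown in colour and 8 of them are named by host gene. Fyb alone lies above the dotted line, at 0.0588 and 0.280.

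Fyb encodes ADAP, an adaptor that couples the T cell receptor to integrins. Its exon (chr15:6644762-6644899, plus strand) is 138 bases long, lies in the coding sequence as exon 11 of 18 in Fyb-201 and keeps the frame. Psi was 0.0588 with Control gRNA and 0.280 with Tardbp gRNA, a difference of 0.221 with a probability of 1. This direction was also used to assign the Psi columns to the groups and is not independent of that choice. The exons on either side of it were almost always included, with a Psi of 0.997 for node 10 in both groups and of 0.992 and 0.994 for node 12. Expression of Fyb itself rose, from 164.9 ± 16.5 to 196.9 ± 12.1 CPM (± SD, n = 8 each, log2 fold change 0.26, SE 0.057, edgeR adjusted p = 0.0011).

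Spcs2 encodes a subunit of the signal peptidase complex, which trims secreted proteins. Its 102-base exon (chr7:99856413-99856514, minus strand), exon 2 of 6 in Spcs2-210, had a Psi of 0.0058 with Control gRNA and 0.0567 with Tardbp gRNA, with a probability of 1. It keeps the frame. Spcs2 expression rose slightly, from 367.4 ± 15.3 to 395.0 ± 22.1 CPM (± SD, n = 8 each, log2 fold change 0.10, SE 0.038, edgeR adjusted p = 0.033), a call that was lost with RNA concentration as a covariate (adjusted p = 0.26) and without the filter on low counts (adjusted p = 0.061).

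The other exons with a probability over 0.9 differed by less than 0.1. In Ube2v2, a variant ubiquitin-conjugating enzyme, the 68-base exon (chr16:15593691-15593758, minus strand) went from 0.0690 with Control gRNA to 0.155 with Tardbp gRNA (probability 0.922). It is untranslated in the transcripts annotated with it, and placed into the transcript that skips it, it brings a stop codon into the frame. In Dctn6, a subunit of the dynactin motor complex, the 113-base exon had a Psi of 0.0373 and 0.0889 (probability 0.951). The values were 0.0193 and 0.0655 in Paip2, an inhibitor of the poly(A)-binding protein (probability 0.904), whose exon lies outside the coding sequence.

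Inclusion per library was rebuilt from the transcript counts to see how libraries varied, as the share of length-scaled counts in transcripts that hold the exon. These are estimates from the same reads and their levels often departed from Psi. Of 611 exons with enough counts, 394 (64.5%) had a control mean under 0.1 and 51 had one over 0.5, and across exons Spearman's rho with control Psi was 0.22. For Fyb the rebuilt share was 0.966, 0.973 and 0.980 in the lowest, median and highest Control library and 0.974, 0.983 and 0.984 with Tardbp gRNA. The ranges of the groups overlapped, and both stood far above Psi.

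For Spcs2 the libraries spread widely. The lowest, median and highest Control libraries had 0.0014, 0.272 and 0.953, and the Tardbp libraries 0.632, 0.944 and 0.9496. Control libraries were thus found low, intermediate and high while every Tardbp library was at 0.632 or above, and the ranges overlapped. The means, 0.423 and 0.875, stood far above the Psi of 0.0058 and 0.0567. The exon is held by 1 of the 9 transcripts that span it, so the share rests on the counts given to that transcript. For Ube2v2 they were 0.0796, 0.674 and 0.776 with Control gRNA and 0.407, 0.669 and 0.777 with Tardbp gRNA, and the groups overlapped almost fully. In Dctn6 the median was 0.276 with Control gRNA (0.0077 to 0.434) and 0.153 with Tardbp gRNA (0.0200 to 0.350), the opposite direction to Psi. Among the 9 exons the rebuilt difference of means had the sign of the Psi difference in 8. For Ube2v2 the medians had the opposite sign, and the ranges of the groups overlapped in all 9. Of the 611 exons, 1 had groups that did not overlap, and it was not among the 9.

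**Figure D3:**
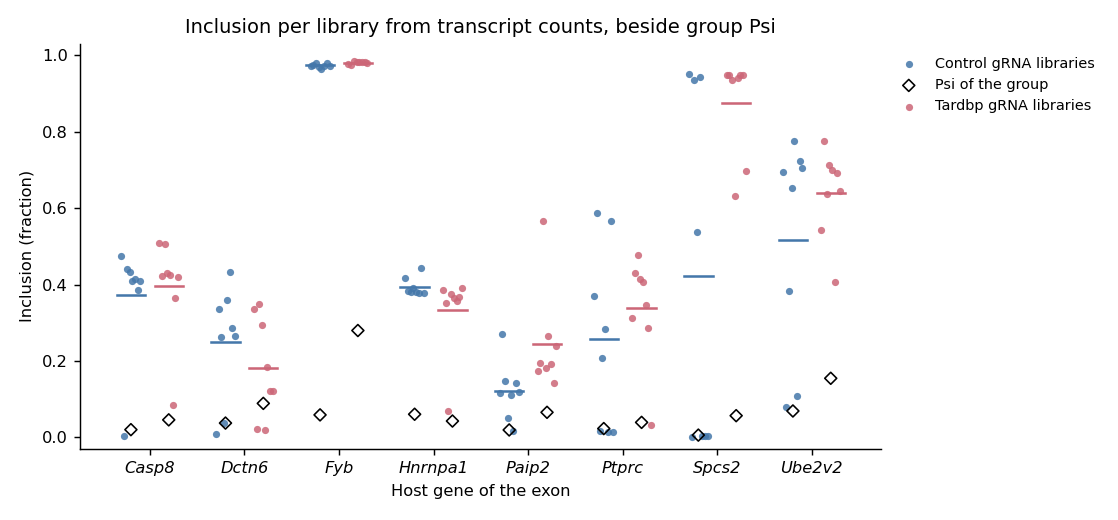
Inclusion rebuilt from transcript counts (y axis, fraction) in each of 8 Control gRNA and 8 Tardbp gRNA libraries for 8 of the 9 exons with a probability over 0.9, by host gene (x axis). Points are libraries, horizontal lines are means and open diamonds are the Psi of the group. The diamonds lie far below the points for Fyb, and the Control libraries of Spcs2 are spread from 0.0014 to 0.953.

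Genes of T cell function were examined as a list of 78 genes, of which 8 held 18 of the exons. Their median difference in Psi was 0.0017, with 12 of 18 higher with Tardbp gRNA. Over all 612 exons the median was 0.0035 and 413 were higher. Of the 18, 10 lie in Cd44 and 2 in Ptprc, and exons of 1 gene are not separate observations. Expression rose for 2 and fell for 3 of the 8 genes (edgeR adjusted p under 0.05), near the background of 24.1% higher and 31.6% lower among genes with a core exon. With log2 RNA concentration as a covariate 1 rose and 0 fell. Of the list, Fyb has been described above.

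Cd44, the hyaluronan receptor that marks activated T cells, held 10 of the exons, its consecutive nodes 12 to 21. These are exons 6 to 15 of 19 in Cd44-201 (chr2:102831330-102848782, minus strand), 90 to 207 bases long, and all 10 keep the frame. Control Psi ran from 0.0121 to 0.0445 and Tardbp Psi from 0.0138 to 0.0588, with the highest value in both groups at node 21, the last of the run. Psi was higher with Tardbp gRNA for 6 of the 10, and no probability exceeded 0.6. The flanking nodes 11 and 22 were at 0.995 and 0.994 with Control gRNA. The rebuilt share, described above, was higher than Psi for these exons. For nodes 12 to 20 its mean was 0.166 to 0.167 with Control gRNA and 0.207 with Tardbp gRNA, and for node 21 it was 0.201 and 0.222, so the 2 measures differ on how often the exons were held. Cd44 expression fell from 61.5 ± 5.56 to 54.1 ± 2.53 CPM (± SD, n = 8 each, log2 fold change -0.18, SE 0.056, edgeR adjusted p = 0.012), which was lost with upper-quartile scaling (adjusted p = 0.12) and with RNA concentration as a covariate (adjusted p = 0.11).

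Ptprc encodes the phosphatase CD45, whose isoforms differ by the alternative exons 4, 5 and 6. The exon of node 6 (chr1:138122456-138122584, minus strand), exon 4 of 33 in Ptprc-207, had a Psi of 0.0040 with Control gRNA and 0.0051 with Tardbp gRNA. The exon of node 8 (chr1:138117754-138117894), exon 6, had 0.0229 and 0.0391 with a probability of 0.912. Between them lay node 7, which is not among the rare exons, with 0.162 and 0.305 and a probability of 1. The node 8 exon thus stood higher with Tardbp gRNA with a difference of 0.016, and node 6 with one of 0.0012. The rebuilt share of node 8 was 0.0129, 0.246 and 0.587 in the lowest, median and highest Control library and 0.0312, 0.377 and 0.477 with Tardbp gRNA, with ranges that overlapped. Ptprc expression was 1509 ± 128 and 1439 ± 76 CPM (± SD, n = 8 each, edgeR adjusted p = 0.27).

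**Figure D4:**
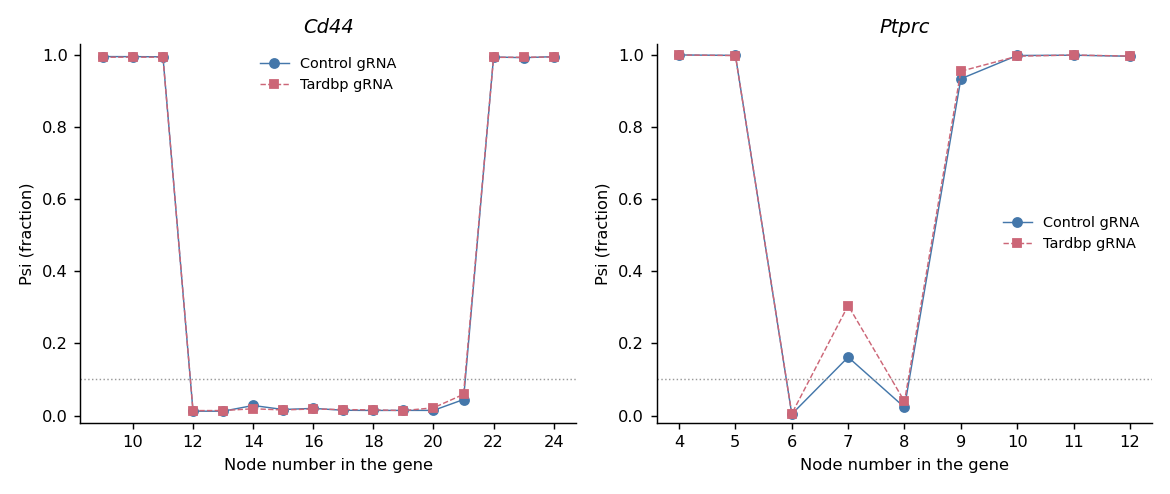
Psi (y axis, fraction) of core exon nodes along Cd44 and Ptprc, by node number (x axis), with Control gRNA (circles) and Tardbp gRNA (squares). The dotted line marks 0.1. Nodes 12 to 21 of Cd44 lie under it in both groups, and in Ptprc nodes 6 and 8 lie under it on either side of node 7.

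The kinase Fyn, which acts next to the T cell receptor, has a pair of neighbouring alternative exons of 165 and 156 bases. The rare one (node 13, chr10:39529437-39529601, plus strand) had a Psi of 0.0231 with Control gRNA and 0.0368 with Tardbp gRNA (probability 0.819), while its neighbour, node 14, had 0.944 and 0.922. Fyn expression was 222.2 ± 61.9 and 290.8 ± 85.6 CPM (± SD, n = 8 each, edgeR adjusted p = 0.079, and 0.035 with upper-quartile scaling).

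In Ikzf1, the gene of the transcription factor Ikaros, the 60-base exon of node 7 (chr11:11740950-11741009, plus strand) had 0.0230 with Control gRNA and 0.0211 with Tardbp gRNA. Its rebuilt share was 0.0496, 0.213 and 0.288 in the lowest, median and highest Control library and 0.0195, 0.0650 and 0.109 with Tardbp gRNA, lower in the median while the ranges overlapped. Prdm1, which encodes the effector regulator Blimp-1, had an exon at 0.0700 and 0.0880. Placed into the transcript that skips it, the exon brings a stop codon into the frame, but it is annotated as coding in Prdm1-201. Its rebuilt share was 0.370, 0.698 and 0.825 in the lowest, median and highest Control library and 0.288, 0.593 and 1.0 with Tardbp gRNA. The ranges overlapped and stood far above Psi. The exon of Dock2, an activator of the small GTPase Rac, was at 0.0045 and 0.0058. The probabilities of these 3 lay between 0.554 and 0.617.

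Of 96 splicing regulators, 8 held 9 of the exons. Expression of 6 of the 8 genes fell and that of 1 rose, where 31.6 and 24.1% of the genes with a core exon did so. The 8 genes had 5.11 to 8.82 log2 CPM, above the median of 4.90 for genes with a core exon. In the third and highest of 4 equal expression bins of those genes, 39.7 and 47.3% were lower. The median difference in Psi of the 9 exons was 0.0029. With log2 RNA concentration as a covariate 2 of the 8 genes fell, Hnrnpa1 and U2af2, and 0 rose. Hnrnpa1, which encodes a hnRNP protein that blocks splice sites, had an in-frame exon with a Psi of 0.0604 with Control gRNA and 0.0427 with Tardbp gRNA (probability 0.946). The rebuilt share was 0.378, 0.382 and 0.444 in the lowest, median and highest Control library and 0.0694, 0.367 and 0.391 with Tardbp gRNA. The ranges met between 0.378 and 0.391. Hnrnpa1 expression fell from 541.8 ± 69.9 to 370.5 ± 32.4 CPM (± SD, n = 8 each, log2 fold change -0.55, SE 0.073, edgeR adjusted p = 7.24e-06).

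Exons of other regulators moved little. That of Srsf6, an SR protein, had a Psi of 0.00087 with Control gRNA and 0.0038 with Tardbp gRNA, and it brings a stop codon into the frame. The stop codon exon of U2af2, the factor that reads the polypyrimidine tract, was at 0.0106 and 0.0198, and that of Luc7l2, a U1-associated protein, at 0.0748 and 0.0745. Srsf2, another SR protein, had an exon at 0.0137 and 0.0148. The muscleblind genes Mbnl1 and Mbnl3 had frame-keeping exons of 54 and 36 bases, at 0.0627 and 0.0571 and at 0.0478 and 0.0588, and Celf1, which binds GU-rich elements, an exon at 0.0769 and 0.0902. Of these, U2af2 (log2 fold change -0.39, SE 0.074, edgeR adjusted p = 0.00029), Mbnl3 (-0.50, SE 0.063, adjusted p = 4.17e-06) and Celf1 (-0.30, SE 0.054, adjusted p = 0.00016) fell in expression. Srsf6 and Mbnl1 fell by less (-0.18 and -0.16, adjusted p = 0.014 and 0.035), and both calls were lost with upper-quartile scaling. Luc7l2 rose (0.21, adjusted p = 0.027), a call lost in library numbers 4 to 8 alone (adjusted p = 0.083). The calls of Mbnl3, Celf1, Srsf6, Mbnl1 and Luc7l2 were lost with RNA concentration as a covariate (adjusted p = 0.073, 0.12, 0.70, 0.16 and 0.23).

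The list of 35 apoptosis genes had 1 exon, in Casp8, the initiator caspase of death receptors. It is 116 bases long (chr1:58803999-58804114, plus strand), lies outside the coding sequence of the most abundant transcript that skips it and holds 3 overlapping matches to the UG repeat. Psi was 0.0201 with Control gRNA and 0.0457 with Tardbp gRNA (probability 0.924). Casp8 expression was 220.9 ± 11.9 and 230.9 ± 21.4 CPM (± SD, n = 8 each, edgeR adjusted p = 0.34, and 0.042 with upper-quartile scaling).

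Of 15 genes known earlier as splicing targets of TDP-43, only Tbc1d1, a regulator of glucose transporter traffic, held rare exons. Its neighbouring nodes 17 and 18 (159 and 120 bases, both frame-keeping) had 0.0338 and 0.0846 and 0.0339 and 0.0733 in Control and Tardbp gRNA, with probabilities of 0.73 and 0.65. Node 17 is held by 2 annotated transcripts and node 18 by 1. The rebuilt values of the 2 nodes were alike and ran from 0.0148 to 0.220 with Control gRNA and from 0.0313 to 0.144 with Tardbp gRNA. Tbc1d1 expression fell from 62.6 ± 4.05 to 36.7 ± 5.34 CPM (± SD, n = 8 each, log2 fold change -0.77, SE 0.081, edgeR adjusted p = 5.42e-07).

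Rare exons came in runs in a few genes. Of the 497 host genes, 434 held 1, 40 held 2 and 23 held 3 or more, which together took up 98 exons. Lrrfip1, whose product binds nucleic acids, had 11, all frame-keeping, with control Psi from 0.0019 to 0.0360 and Tardbp Psi from 0.0023 to 0.0388. Genes of the cytoskeleton followed: Svil, the gene of the actin-binding supervillin, had 6 (0.0477 to 0.0743 with Control gRNA and 0.0522 to 0.113 with Tardbp gRNA), and Nebl, Ablim1 and Epb41 had 4 each, all of them frame-keeping. Clasp1, which acts at microtubule ends, had 4 between 0.0475 and 0.0973 with Control gRNA and between 0.0830 and 0.102 with Tardbp gRNA. In Mx1, an interferon-induced antiviral GTPase, nodes 9 to 12 were at 0.0872 to 0.0946 and at 0.118 to 0.121. Exons of 1 gene share their transcripts and are not separate observations.

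To ask whether genes with rare exons also changed in expression, all 16650 genes were tested with edgeR. The choice of exons did not use gene counts, but control Psi comes from the same libraries and fell as host gene expression rose. The shares of host genes below are therefore not fully independent of the choice. All 497 host genes passed the filter on low counts, and 335 of them (67.4%) passed an adjusted p of 0.05. They were 123 genes that rose (24.7%) and 212 that fell (42.7%). Over all genes tested the shares were 46.7% in either direction, 23.5% higher and 23.3% lower. Among the 10774 tested genes with a core exon over 30 bases in the Psi table they were 55.7, 24.1 and 31.6%. The median log2 fold change was -0.09 for the host genes, -0.02 for genes with such a core exon and 0.05 for all genes. With log2 RNA concentration as a covariate, 144 host genes were called, 36 higher and 108 lower. RNA concentration did not overlap between the groups, so its effect and that of the guide cannot be told apart.

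**Figure D5:**
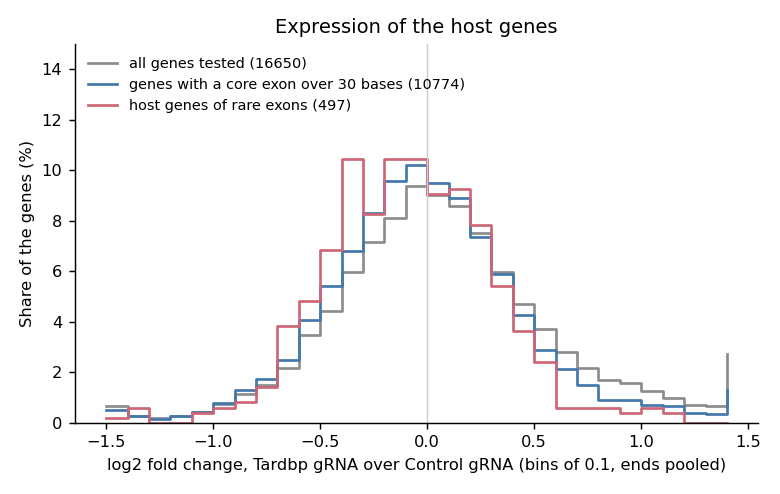
Share of genes (y axis, %) by log2 fold change of Tardbp gRNA over Control gRNA (x axis, bins of 0.1, values beyond the ends pooled in the end bins), for all genes tested, genes with a core exon over 30 bases and the 497 host genes of rare exons. The median of the host genes is -0.09 and that of all genes 0.05.

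Host genes were more highly expressed than other genes, with a median log2 CPM of 5.70 against 4.90 for genes with a core exon and 3.45 for all genes. The genes with a core exon were divided into 4 equal bins by expression. In the highest bin, 47.4% of 175 host genes and 47.3% of all genes with a core exon in that bin were called lower. The shares were 46.2% of 158 host genes against 39.7% in the third bin, 35.5% of 138 against 26.4% in the second and 26.9% of 26 against 12.8% in the lowest. The excess of lower calls was thus absent at the highest level of expression. Host genes of frame-keeping exons (208 genes) were lower in 51.9% and higher in 16.8%, those of exons with a stop codon (113) in 43.4 and 30.1%, and those of exons outside the coding sequence (122) in 38.5 and 27.9%. The difference between these kinds was not tested.

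Among called host genes of at least 3 log2 CPM, 4 of the 5 with the highest changes were Smim8, Tbc1d4, 2610035D17Rik and Mx1. Smim8, a small membrane protein gene (chr4:34768664-34778423), had 13.8, 16.4 and 20.1 CPM in the lowest, median and highest Control library and 30.2, 35.9 and 45.0 with Tardbp gRNA, with no overlap (log2 fold change 1.14, SE 0.084, edgeR adjusted p = 2.98e-08). Its rare exon was at a Psi of 0.0483 with Control gRNA and 0.0646 with Tardbp gRNA. Tbc1d4, a Rab regulator related to Tbc1d1, rose by 1.02 on the log2 scale (SE 0.171, edgeR adjusted p = 8.17e-05) and its 165-base exon was at 0.0740 with Control gRNA and 0.0350 with Tardbp gRNA, which with Dscc1 had the lowest differences among the 612. The noncoding RNA gene 2610035D17Rik rose by 1.01 (SE 0.119, adjusted p = 2.00e-06) and Mx1 by 0.93 (SE 0.251, adjusted p = 0.0055). With RNA concentration as a covariate the calls of Tbc1d4 and Mx1 were lost (adjusted p = 0.22 and 0.16).

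Of the 5 lowest, 4 were Ccr6, Prdm1, Slc39a14 and Cyfip1. Prdm1 fell from 14.0 ± 3.52 to 6.97 ± 3.01 CPM (± SD, n = 8 each, log2 fold change -1.003, SE 0.218, edgeR adjusted p = 0.00094, lost with RNA concentration as a covariate at 0.11). The chemokine receptor gene Ccr6 changed by -1.31 on the log2 scale (SE 0.251, edgeR adjusted p = 0.00032), the zinc transporter gene Slc39a14 by -0.996 (SE 0.099, adjusted p = 3.08e-07) and Cyfip1, of the actin-regulating WAVE complex, by -0.95 (SE 0.099, adjusted p = 5.53e-07). Their rare exons were at 0.0380 and 0.0806 in Ccr6, at 0.0405 and 0.0971 in Slc39a14 and, for the 2 of Cyfip1, at 0.0558 and 0.0977 and at 0.0459 and 0.0688 in Control and Tardbp gRNA. In a bulk sample, fewer cells of a type and less RNA per cell cannot be told apart.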

How the data were processed

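RNA of sorted CD8+ T cells, 8 libraries with Control gRNA and 8 with Tardbp gRNA, was sequenced after SMART-Seq v4 and Nextera XT preparation. Per the labels, the authors aligned reads to mm10 with HISAT2 2.1.0, used SAMtools 1.9, and deposited estimated counts per gene and transcript from StringTie 2.1.0 without normalization. The sequencing facility gave the deposited counts of read pairs. Splicing was measured by the authors with Whippet (version not given in the sources used here), and they deposited Psi as a fraction per group together with a score, the posterior probability of a difference, and their own Psi difference, whose column was only checked for sign. The Psi columns are named only by letter. They were assigned to groups from the order in which the table names them and from the study's text on the Fyb exon, so the direction of Fyb is no independent result. Among 82 other core exons past both limits on Psi, the difference rebuilt from transcript counts had the sign given by this assignment in 59.

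Of each count table, 10 columns were left aside because they match none of the samples, and lines that name no annotated gene (0.0836 to 0.132% of counts) were left out. Gene expression was compared by edgeR 4.0.16 in R 4.3.3 (quasi-likelihood, TMM, filterByExpr with a minimum count of 10, two-sided, Benjamini-Hochberg) and checked with DESeq2 1.42.0. p-values measure the spread between libraries. On simulated data, 71 of 100 genes changed by a log2 fold of 1 and 47 of 100 changed by 0.5 were recovered, among 16650 genes. Only 200 genes were changed there, whereas 46.7% of genes were called in the data. The shares recovered therefore do not give the power of the comparison made here. Exons were matched to GENCODE M21 (611 of 612). Inclusion per library used exons whose spanning transcripts had a mean count over 50. Named were the exons past both limits on Psi, the widest difference in each gene of 4 lists, all exons of Ptprc and Cd44, those nearest the threshold, and the 5 highest and 5 lowest host genes. The exons, lists and comparisons were chosen with earlier results of these data known. A planned search of intron ends was not run, and a few of the named exons and genes are not reported here.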

Additional observations from a re-analysis of the deposited data

Results flagged for a closer look

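Values far from the rest of their group of 8 libraries were looked for in the rebuilt inclusion of the exons with a probability over 0.9 and of Ptprc, and in the CPM of the named host genes and Tardbp. Of 42 groups of values, 8 held one, where a nominal rate of 1 in 20 would give 2.1. The groups are not independent, since the Ptprc exons of nodes 6 and 8 share transcripts and were flagged for the same library. The counts are therefore a description and no test of an excess.

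In Tardbp gRNA, library 8 had a rebuilt inclusion of 0.0240 for the Ptprc node 6 exon and of 0.0312 for node 8, while the other libraries lay from 0.282 to 0.472 and from 0.286 to 0.477. The Hnrnpa1 exon was at 0.0694 in Tardbp library 3, and at 0.352 to 0.391 in the others. The Casp8 exon was at 0.0027 in Control library 2, against 0.386 to 0.475 in the others, and at 0.0844 in Tardbp library 6, against 0.364 to 0.508. The Paip2 exon was at 0.567 in Tardbp library 3, with the others between 0.141 and 0.265. For gene expression, Prdm1 was at 13.4 CPM in Tardbp library 1, against 4.05 to 8.27 in the others, and Tardbp at 110.4 CPM in Tardbp library 3, against 129.8 to 147.2.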

How the results depend on the processing

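The count of 335 called host genes (123 higher, 212 lower) changed by less than 1.5 times with DESeq2, upper-quartile scaling, no filter on low counts, an adjusted p under 0.01, numbers 4 to 8 alone, and the division of numbers 1 to 3 and 4 to 8 as a term, ranging from 267 to 340. With log2 RNA concentration as a covariate it was 144, with 36 higher and 108 lower, and 143 of these were among the 335, while 16.2% of all genes were called. With the replicate block it was 321, of which 318 were shared. Same-numbered libraries correlated between -0.0048 and 0.16 and 5 of 16 correlated best with their own number, so the numbers were not taken as pairs, and the blocked fit lost 1 of the named genes' calls (Mbnl1, adjusted p = 0.094).

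The direction of uncalled genes turned under upper-quartile scaling for Ptprc (log2 fold change 0.0048) and Ube2v2 (0.016), and with RNA concentration for Dock2 (-0.14). The cause was not tested. A control Psi under 0.05 left 349 exons by its own construction. The count of 1 exon past both limits on Psi was the same at probabilities over 0.95 and 0.99, in host genes of at least 3 log2 CPM and with each coordinate once. Exons with a rebuilt control mean under 0.1 numbered 394, and 389 to 400 under the other count minimums and without length scaling.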
